A study of Mus musculus with 2 samples.

Results

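The 10 genes described here are the cathepsins Ctsa, Ctsb, Ctsc, Ctsd, Ctsh, Ctsk, Ctsl, Ctss and Ctsz and the related protease gene Lgmn, which encodes legumain. They were chosen by gene symbol, and all 10 were found among 55536 annotated genes, 22015 of them protein-coding genes outside the mitochondrial genome (nuclear protein-coding genes below). The libraries were made from ribosomal-RNA-depleted total RNA of the nuclear fraction of macrophages grown from C57BL/6J mouse bone marrow, which are primary cells. All cells had received 100 ng/ml of Lipid A, the endotoxin moiety sensed by the receptor TLR4, over 12 hours, followed by 12 hours after washout and a second exposure to 100 ng/ml for 60 minutes. There is 1 group of 2 libraries, made from 1 µg of RNA in replicate 1 and 500 ng in replicate 2. Both carry the same donor identifier in the labels, which do not record sex or age and name the fraction as nuclear in 1 field and nucleoplasmic in another. No unstimulated or cytoplasmic sample was analysed here, so no value below is a response to Lipid A or a nuclear enrichment.

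Cathepsins and legumain are the main proteases of lysosomes. They are made as inactive precursors, carried to endosomes and lysosomes largely by mannose 6-phosphate receptors, and activated in that acidic space by cleavage of a propeptide, some by legumain. In macrophages they degrade engulfed material and cut antigens and the invariant chain for loading of MHC class II molecules. Cystatins are tight-binding inhibitors of cysteine proteases among them. Most members are papain-like cysteine proteases, while Ctsd encodes an aspartic protease, Ctsa a serine carboxypeptidase and Lgmn a cysteine protease of another family, which cuts after asparagine.

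The expected counts on genes totalled 23630328 in replicate 1 and 15687634 in replicate 2. All 10 macrophage markers examined were at or above 1 TPM (a level corrected for transcript length and scaled to a fixed total) in both libraries, among them Lyz2 (2211 and 1413 TPM), Sirpa (1348 and 754 TPM), Adgre1 (996 and 491 TPM) and Csf1r (295 and 225 TPM). Of 23 markers of other cell classes, 3 reached 1 TPM in both: the platelet gene Pf4 (23.3 and 17.5 TPM) and the osteoclast genes Acp5 (7.82 and 4.88 TPM) and Atp6v0d2 (1.45 and 1.29 TPM). The endothelial gene Pecam1 stood at 1.48 and 0.53 TPM. By the second quantifier, introduced below, 4 passed 1 TPM: Pf4, Acp5, Pecam1 (1.59 and 5.29 TPM) and the osteoclast gene Ocstamp, but not Atp6v0d2 (0.597 and 0.923 TPM). The sum over the 23 was 36.2 and 25.8 TPM, and 6 of them, including the neutrophil gene Ctsg and the osteoclast gene Calcr, had no count in either library.

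Transcripts of 9 members were abundant in the nuclear RNA, and 1 member, Ctsk, was close to the limit of detection. A level of 100 TPM or more in both libraries was reached by 8 of the 10 members, against 1.37% of nuclear protein-coding genes. The second quantifier, a kallisto-format transcript table, put 6 members there, against 0.568% of those genes. The members together held 3.45% of the TPM of those genes in replicate 1 and 2.66% in replicate 2 (mean 3.06% ± 0.558, SD, n = 2). Ctsb and Ctsd alone made up 51.6% of the members' TPM in replicate 1 and 52.6% in replicate 2. By TPM, 3 members ranked among the 20 highest nuclear protein-coding genes of both libraries and 6 among the 50 highest.

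**Figure D1:**
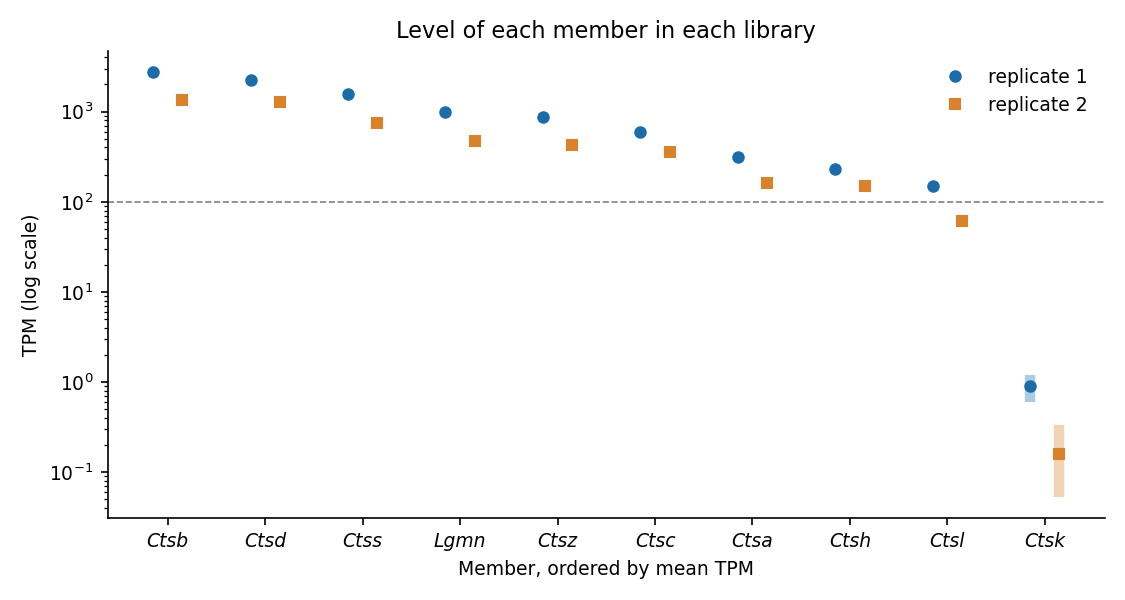
Level of each member in TPM (log axis) in replicate 1 (circles) and replicate 2 (squares), ordered by mean, with the deposited TPM interval as a pale bar, which is wider than its symbol only for Ctsk, and a dashed line at 100 TPM. The levels fall from 2751 and 1353 for Ctsb to 0.90 and 0.16 for Ctsk, and every member sits higher in replicate 1. The summed TPM of nuclear protein-coding genes was higher there too.

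The papain-like endopeptidases spanned almost the whole range of levels. Ctsb, which encodes a protease that also trims dipeptides from the carboxyl end of proteins, stood at 2751 TPM in replicate 1 and at 1353 TPM in replicate 2. It ranked 3 and 7 among nuclear protein-coding genes in the respective library. Ctss, whose product stays active near neutral pH and cuts the invariant chain, stood at 1570.35 and 750.3 TPM and ranked 12 and 19. Ctsl, encoding a broad lysosomal endopeptidase, stood at 150 and 60.8 TPM, and was the member that passed 100 TPM in replicate 1 only. In all 3 genes replicate 1 was the higher library by TPM. The summed TPM of nuclear protein-coding genes was also higher there, 281404 against 188039 in replicate 2.

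Ctsk, which encodes the collagen-degrading cathepsin known from osteoclasts, was listed at 0.90 and 0.16 TPM in the respective library. These levels rest on 31 expected counts (95% exact Poisson interval 21.1 to 44.0) and 5 expected counts (1.62 to 11.7), and the gene ranked 9525 and 11288. Its neighbour on chromosome 3 is Ctss: Ctsk lies at chr3:95499256-95509362 and Ctss at chr3:95526786-95556403, both on the plus strand, with 17423 bases and 0 annotated genes between them. Per unit length, the TPM of Ctss was 1745 times that of Ctsk in replicate 1 and 4689.5 times in replicate 2, where the value rests on 5 Ctsk counts. Of the osteoclast markers, Calcr had no count and Dcstamp stood at 0.03 and 0 TPM. Ocstamp stood at 0.02 and 0.02 TPM but at 1.66 and 2.03 TPM in the second quantifier, and Acp5 and Atp6v0d2 had the levels given above.

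The exopeptidases, which remove residues from protein ends, lay in the middle of the order. Ctsz, encoding a carboxypeptidase, stood at 863 and 423 TPM and ranked 30 and 36. Ctsc, encoding the dipeptidyl peptidase that activates granule serine proteases, stood at 593 and 359 TPM and ranked 42 and 48. Ctsh, encoding an aminopeptidase, stood at 229 and 150.15 TPM and ranked 180 and 181. The aspartic protease gene Ctsd was second only to Ctsb among the members, with 2268 and 1283 TPM and ranks of 7 and 9. Ctsa, whose product also protects the lysosomal enzymes encoded by Glb1 and Neu1, stood at 311 and 162 TPM and ranked 113 and 166. Lgmn stood at 987 and 468 TPM and ranked 26 and 31.

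Both libraries put the 10 members in the same order of TPM, from Ctsb, Ctsd, Ctss, Lgmn and Ctsz to Ctsc, Ctsa, Ctsh, Ctsl and Ctsk. Among close neighbours, Lgmn exceeded Ctsz by 0.17 ± 0.03 on the log2 scale (mean and SD of the difference within a library, n = 2). Ctsb exceeded Ctsd by 0.18 ± 0.14, and Ctsa exceeded Ctsh by 0.28 ± 0.23. In replicate 2 alone the last pairs were closer (0.08 and 0.11) than Lgmn and Ctsz (0.15). For each of the 9 neighbouring pairs the mean difference was larger than its SD and the deposited TPM intervals did not overlap in either library. With 2 libraries that SD is imprecise. How reads divide between Ctsd and the overlapping gene Gm49369, described below, is an estimate. In replicate 2 Gm49369 held 14.4% of their summed counts and Ctsb exceeded Ctsd by only 0.08, so the order of that pair is uncertain there. In the second quantifier Ctsz and Ctsc could not be ordered: Ctsz was higher by 0.15 in replicate 1 and Ctsc by 0.13 in replicate 2 (log2 difference Ctsz minus Ctsc of 0.15 and -0.13).

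All 10 members had a lower normalised count in replicate 2 than in replicate 1. After scaling of the expected counts by TMM, Ctsl differed most among the abundant members, with 4944 normalised counts in replicate 1 and 2660.1 in replicate 2, a log2 ratio (replicate 2 over replicate 1) of -0.89. Lgmn followed at -0.69, Ctss at -0.64, Ctsz at -0.60 and Ctsa at -0.58. Ctsd (-0.42), Ctsb (-0.35), Ctsh (-0.18) and Ctsc (-0.17) differed less. Of 11125 nuclear protein-coding genes averaging at least 10 counts, 54.4% were lower in replicate 2 by any amount. The median log2 ratio was -0.59 over the members and -0.04 over those genes, and it was -0.09 over the 302 nuclear protein-coding genes at or above 100 TPM in both libraries.

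The count of 10 lower in replicate 2 also held with DESeq2 size factors and with TPM centred on the median gene. It held as well with counts of the second quantifier, by which 55% of 14354 nuclear protein-coding genes were lower. Of the 302 nuclear protein-coding genes at or above 100 TPM in both libraries, 185 were lower in replicate 2 by TMM. By the second quantifier 230 of these 302 were lower, with a median log2 ratio of -0.22. A difference over 2-fold was reached by 1 of 10 members, Ctsk, at a log2 ratio of -1.96 from 31 and 5 counts. Among all 14052 genes tested 8.63% were over 2-fold apart in either direction, and 4.55% were over 2-fold higher in replicate 1. The second quantifier counted 40 and 22 for Ctsk and gave -0.75. Over 1.5-fold higher in replicate 1 were 5 members (Ctsk, Ctsl, Lgmn, Ctss and Ctsz), against 11.3% of nuclear protein-coding genes. The input of RNA and the depth differed between the libraries in the same sense as the members, and the part of either in these ratios was not tested.

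**Figure D2:**
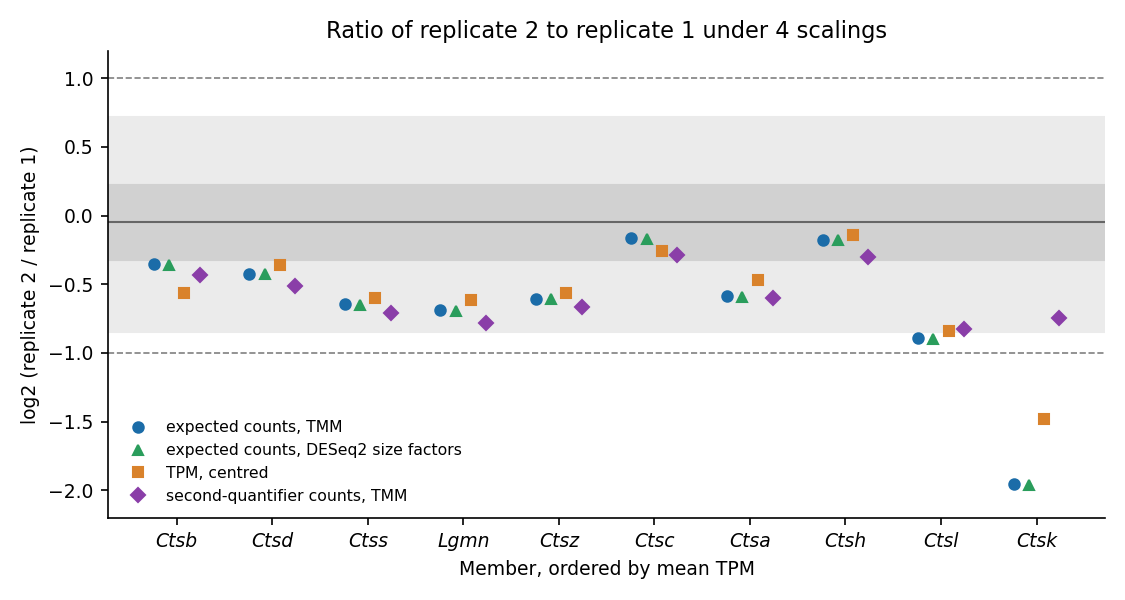
Log2 ratio of replicate 2 to replicate 1 for each member under 4 scalings (symbols), over the middle 50% (dark band), the middle 90% (pale band) and the median (line) of nuclear protein-coding genes scaled by TMM, with dashed lines at 2-fold. All points of the 10 members lie below the median line of -0.04, and only Ctsk passes 2-fold, under 3 of the 4 scalings.

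The transcript tables divide each gene's counts among its annotated transcripts. The share of a gene's expected counts on transcripts of types other than protein_coding (in the annotation's terms retained_intron, nonsense_mediated_decay or processed_transcript) had a median over the members of 0.31% in replicate 1 and 0.47% in replicate 2. Over 7213 nuclear protein-coding genes with 100 or more counts in both libraries the medians were 7.76% and 8.66%. Ctss, Ctsz and Ctsk have no annotated transcript of those types, so their 0% follows from the annotation. Ctsd (0.14% and 0.08%), Ctsl (0.19% and 0.32%) and Lgmn (0.43% and 0.61%) were under 1%. Ctsa (4.21% and 5.05%), Ctsb (4.08% and 1.12%) and Ctsc (5.05% and 3.29%) held a few percent. By TPM, which corrects for length, the shares of these 3 were larger. They were 20.3% and 20.0% for Ctsa, 22.0% and 5.22% for Ctsb, and 24.1% and 17.2% for Ctsc. The medians of the 7213 genes by TPM were 19.7% and 22.1%. Ctsh stood apart with 66.7% and 81.0%, and was the 1 member of 10 over 50% in both libraries, as were 8.96% of the 7213 genes. By the second quantifier its share was 65.3% and 78.6%, and 12.8% of those genes passed 50%. That quantifier also gave Ctsl a larger share, 4.45% and 5.64%, and Ctsc 9.99% and 8.95%.

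**Figure D3:**
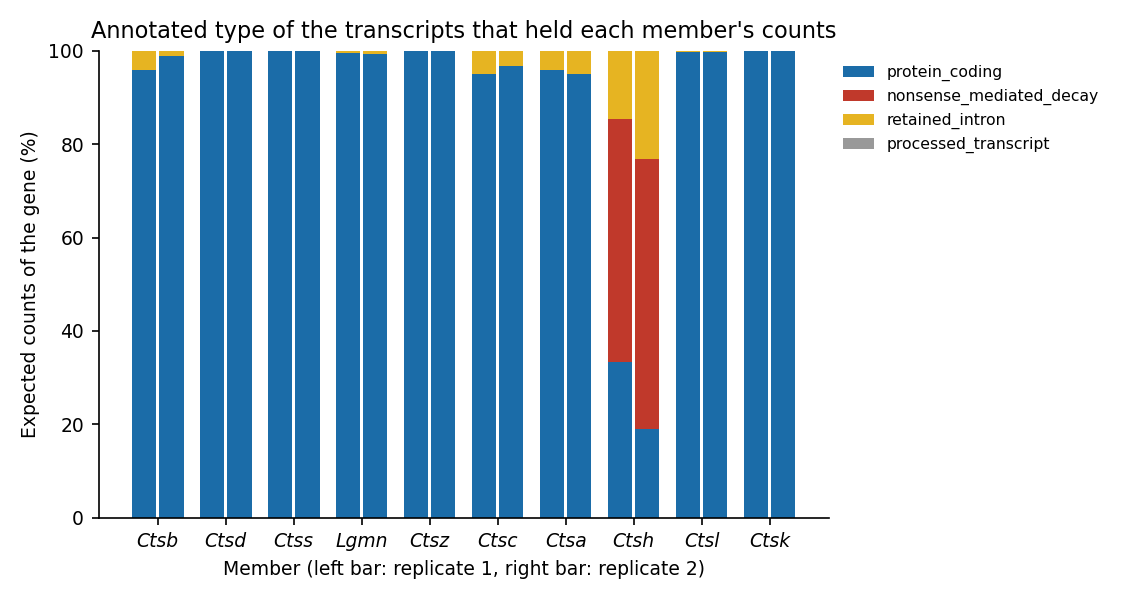
Share of each member's expected counts (percent, stacked) by the annotated type of the transcript, with replicate 1 as the left and replicate 2 as the right bar of each pair. Ctsh is the only member with a red segment, the nonsense_mediated_decay type, at 52.1% and 57.7%. By expected counts the other members are almost wholly protein_coding, which does not hold by TPM for Ctsa, Ctsb and Ctsc.

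Most expected counts of Ctsh were placed on a transcript that lacks an exon and is not predicted to make the full enzyme. Ctsh lies at chr9:90054152-90076089 on the plus strand (mm10). Its exon 3, of 106 bases at chr9:90061519-90061624, is part of the protein_coding Ctsh-201 and absent from Ctsh-202, which is annotated as a target of nonsense-mediated decay, the pathway that removes messages with an early stop codon. The 30 bases across each junction show what the omission does to the reading frame. Capitals mark the start of exon 3 in Ctsh-201 (chr9:90060496-90061533, spliced) and the annotated stop codon in Ctsh-202 (chr9:90060496-90062731, spliced), both 5′ to 3′ on the plus strand.
Ctsh-201: tcatggatgaaacagCATCAAAAGACGTAC
Ctsh-202: tcatggatgaaacagtggcatTGAaccagt
The annotated reading frame is 333 codons long in Ctsh-201 and 41 codons in Ctsh-202.

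The share of Ctsh-202 in the gene's expected counts was 52.1% (replicate 1, 95% Wilson interval 50.9 to 53.3) and 57.7% (replicate 2, 56.2 to 59.2). Ctsh-201 held 33.2% (32.1 to 34.3) and 19.0% (17.8 to 20.2). Another transcript, Ctsh-203, contains exon 3 and an exon that runs over an intron at chr9:90067027-90068473 (1447 bases), and it held 10.02% and 18.9%. These intervals cover counting error only and not the division of reads among transcripts. A nonsense_mediated_decay share over 50% in both libraries was found in 0.929% of the 7213 genes. In the second quantifier Ctsh-202 held 45.7% and 49.1%, so it did not pass 50% there (0.97% of genes did), but it was again the Ctsh transcript with most counts in both libraries. Every base of Ctsh-202 is also in Ctsh-201, which leaves exon 3 with its junctions, the junction across it and the differing ends to separate them, and no counts of junction reads were analysed here.

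The Ctsc transcript with most counts has a short reading frame. Ctsc lies at chr7:88278085-88310888 on the plus strand. Its transcript Ctsc-203 held 57.2% (Wilson interval 56.6 to 57.7) and 61.9% (61.2 to 62.5) of expected counts in the respective library. Ctsc-201, which spans the gene, held 37.3% and 34.7%. Ctsc-203 begins with the first 2 exons of Ctsc-201, continues with an exon of its own and ends with an exon of 2748 bases at chr7:88288650-88291397, the stop codon lying near the start of the latter. At 3220 bases it is longer than Ctsc-201 (2493 bases), but its annotated frame is 137 codons, against 462. The end of that frame is shown with the stop codon in capitals (chr7:88286960-88288660, plus strand, spliced).
Ctsc-203: catctgaggaacaaactggttattaaaTAG
The second quantifier gave Ctsc-203 55.0% and 60.0% and Ctsc-201 34.3% and 30.8%. The last exon of Ctsc-203 lies within an intron of Ctsc-201, so that in nuclear RNA unspliced Ctsc transcripts and Ctsc-203 cannot be told apart from these totals.

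**Figure D4:**
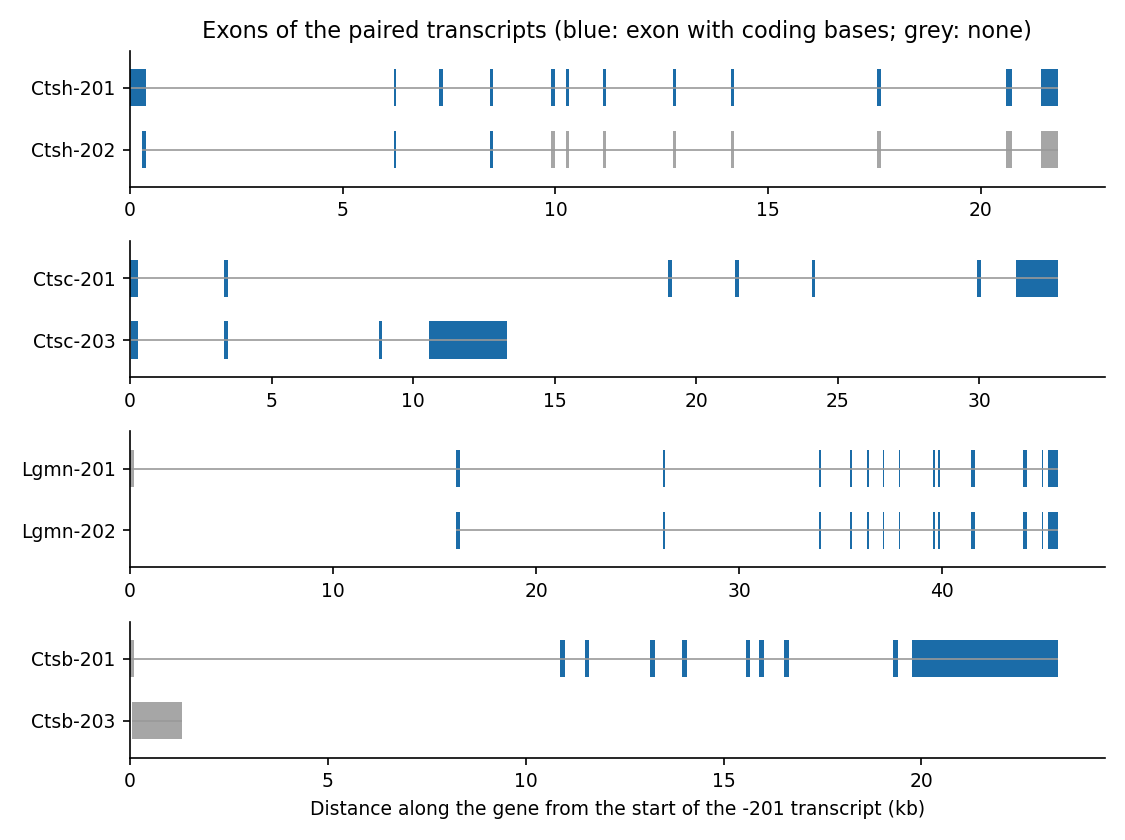
Exons of paired transcripts of Ctsh, Ctsc, Lgmn and Ctsb drawn to scale as distance in kb from the start of the upper transcript of each pair, in the direction of transcription; blue boxes hold coding bases and grey boxes hold none. Ctsh-202 lacks exon 3 of Ctsh-201 and has no coding bases beyond the exon after it, Ctsc-203 ends inside an intron of Ctsc-201, and Lgmn-202 lacks the first exon of Lgmn-201.

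Lgmn counts were divided differently in the libraries between transcripts with 2 different starts that encode the same protein. The gene lies at chr12:102394084-102439813 on the minus strand. Lgmn-201 begins with an exon of 183 bases at chr12:102439631-102439813, and Lgmn-202 begins 16044 bases downstream at the exon that follows in Lgmn-201. The coding sequence is identical, with 435 codons in each. The sequences below are the first 30 bases of Lgmn-202 (chr12:102423740-102423769) and the junction of the first 2 exons of Lgmn-201 (chr12:102423740-102439644, spliced), with the bases before the shared exon in capitals.
Lgmn-202: GTCTTTCCTTTCAGtcttctgtagcggaca
Lgmn-201: GATCACCCGCCCAGtcttctgtagcggaca
The 14 bases by which Lgmn-202 begins before the shared exon are, in Lgmn-201, the end of the intron that is spliced out.

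In replicate 1, Lgmn-201 held 57.6% of the gene's expected counts (Wilson interval 57.2 to 58.1), and in replicate 2 it held 32.9% (32.2 to 33.6). Lgmn-202 held 41.9% (41.5 to 42.4) and 66.5% (65.8 to 67.1), so the transcript given most counts differed between the libraries. The second quantifier gave the same order, with 64.0% and 42.0% for Lgmn-201 and 35.0% and 56.7% for Lgmn-202. In expected counts, Lgmn-201 had 25435 and 5998 and Lgmn-202 had 18517 and 12106. The transcripts share 1807 bases, with 183 found only in Lgmn-201 and 28 only in Lgmn-202. Part of the latter is intron in Lgmn-201, so that in nuclear RNA unspliced Lgmn transcripts and Lgmn-202 cannot be told apart from these totals. A transcript share that differed by 15 percentage points or more between the libraries was found in 21.5% of 6814 nuclear protein-coding genes with 2 or more transcripts, and in 11.2% in both quantifiers and in the same direction. Lgmn and Ctsd were the members that met both criteria.

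In Ctsd the 2 coding transcripts differ by 18 bases at the end of exon 6 and in the length of their ends. The gene lies at chr7:142375911-142388038 on the minus strand, and the 18 bases are chr7:142377333-142377350. They add 6 codons, 410 in Ctsd-202 against 404 in Ctsd-201. The junction of exons 6 and 7 is shown for both (chr7:142377165-142377356, minus strand, spliced), with the bases found only in Ctsd-202 of the pair in capitals.
Ctsd-202: ctactgGCAGGTGCACATGGACCAgttgga
Ctsd-201: ctactggttgga
Ctsd-202 held 73.7% (Wilson interval 73.4 to 73.9) and 55.3% (54.9 to 55.8) of the gene's expected counts in the respective library, and Ctsd-201 held 26.2% and 44.6%. The second quantifier gave 89.0% and 66.8% to Ctsd-202 and 10.8% and 32.9% to Ctsd-201. The difference between libraries had the same direction in both tables, but the share of Ctsd-201 in replicate 1 differed more than 2-fold between the quantifiers.

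A second annotated gene, Gm49369 (chr7:142371096-142382667), overlaps Ctsd on the same strand and uses its exons. Its more abundant transcript is 833 bases long, of which 670 lie in Ctsd exons, and it contains the 18 bases of Ctsd-202. Gm49369 had 3587 and 9227 expected counts, at 218 and 636 TPM. Its log2 ratio of 1.95 was the highest among the 302 nuclear protein-coding genes at or above 100 TPM in both libraries, while Ctsd stood at -0.42. The counts of both genes summed to 114058 and 63952, a log2 ratio of -0.24, and Gm49369 held 3.15% of the sum in replicate 1 and 14.4% in replicate 2. Over both genes, the 3 transcripts with the 18 bases held 74.5% and 61.8% of expected counts in the respective library, and 89.5% and 70.9% in the second quantifier. How the reads over the shared exons divide between these genes is an estimate, so the Ctsd values are uncertain to that extent.

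**Figure D5:**
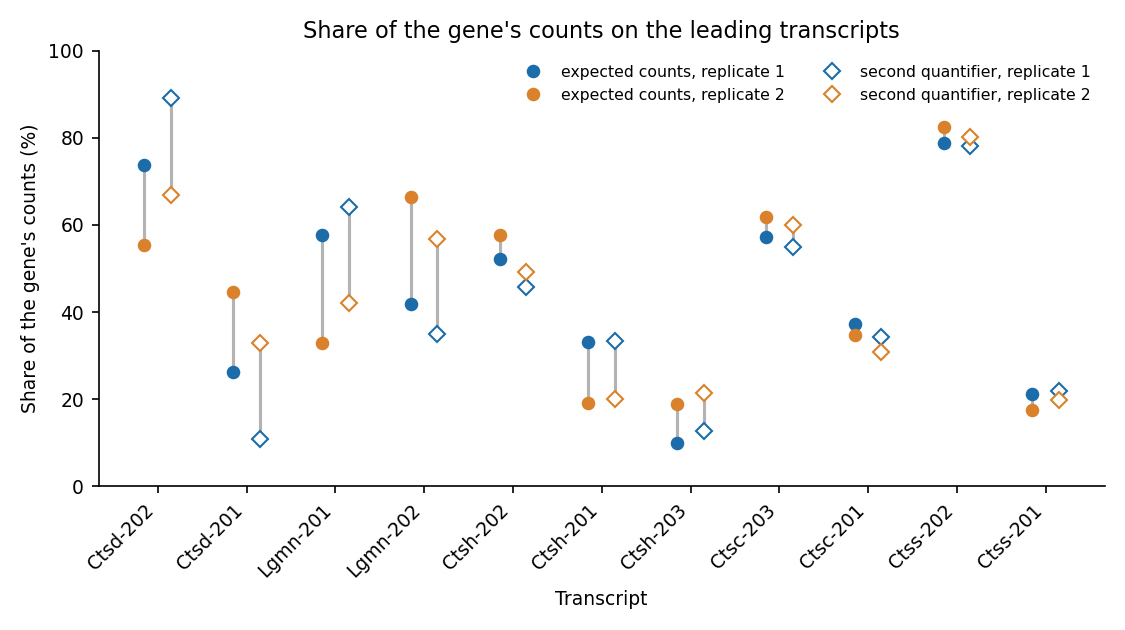
Share of the gene's counts (percent) on the leading transcripts of Ctsd, Lgmn, Ctsh, Ctsc and Ctss in replicate 1 (blue) and replicate 2 (orange), from expected counts (filled circles) and from the second quantifier (open diamonds); a grey line joins the libraries. The leading Lgmn transcript changes from Lgmn-201 at 57.6% in replicate 1 to Lgmn-202 at 66.5% in replicate 2, and the Ctss pair stays within 4 percentage points.

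The transcript pair of Ctss kept similar shares in both libraries. The transcripts differ at the start of exon 2, where Ctss-201 has 3 more bases (chr3:95529434-95529436), 1 more codon (341 against 340). The junction of exons 1 and 2 is shown for each (chr3:95526911-95529448, plus strand, spliced), with the additional bases in capitals.
Ctss-201: tggccacgctgccatCAGaagatggctgtt
Ctss-202: tggccacgctgccataagatggctgtt
The form without them, Ctss-202, held 78.7% (Wilson interval 78.4 to 79.1) and 82.6% (82.1 to 83.1) of expected counts. In the second quantifier it held 78.2% and 80.2%. Both tables gave the same order, with a difference between libraries of 3.87 percentage points in expected counts and 1.98 in the second quantifier.

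In Ctsb, at chr14:63122462-63145923 on the plus strand, the protein_coding Ctsb-201 (339 codons) held 95.9% and 98.9% of expected counts. The other annotated transcripts run into introns. Ctsb-202, which starts with 90 intron bases at chr14:63135518-63135607, was given 7664 expected counts in replicate 1 and 250 in replicate 2. These were 2.87% and 0.18% of the gene's expected counts, while by TPM Ctsb-202 held 17.8% and 1.34% of the gene. The second quantifier gave it 6.02% and 2.65% of counts, again lower in replicate 2. Ctsb-203, chosen after its values were seen, is exon 1 continued for 1217 bases into intron 1 (chr14:63122566-63123782) and had 3220 and 1301 counts. The sequence at that boundary is shown beside the spliced junction, with intron bases in capitals (Ctsb-203 at chr14:63122554-63122583 and Ctsb-201 at chr14:63122554-63133333, plus strand).
Ctsb-203: gcgctgcgctcgGTGAGTTTGCCCGGGGCA
Ctsb-201: gcgctgcgctcggtgagtgcaggatccagc
Both sequences continue gtgagt after exon 1, so a read that ends within those bases fits either transcript. Because Ctsb-202 is short and Ctsb-201 long, the shift changed the effective length of the gene from 3687 bases in replicate 1 to 4337 in replicate 2. The log2 ratio of Ctsb was -0.35 from counts and -0.56 from centred TPM.

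Of the remaining members, Ctsz at chr2:174427493-174439039 on the minus strand (306 codons) and Ctsk (329 codons) have 1 annotated transcript each. Ctsl, at chr13:64359337-64370890 on the minus strand, had 92.3% and 93.4% of expected counts on Ctsl-201 (334 codons), but 71.2% and 70.3% in the second quantifier. Its second transcript, Ctsl-203, held 3.76% and 0.73% in expected counts and 12.9% and 6.50% in the second quantifier. In Ctsa, at chr2:164832873-164841032 on the plus strand, Ctsa-202 (474 codons) held 85.2% and 78.2% and Ctsa-201 (492 codons) 5.37% and 9.63%. The use of strand in counting is not stated, and antisense neighbours with sizeable levels overlap 2 members. Pltp (208 and 88.9 TPM) shares 1515 bases with Ctsa, and the lincRNA Gm26522 (114 and 94.6 TPM) shares 4743 bases with Ctsc.

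Promoter sequence, given for part of the family, was searched for CACGTG, a palindrome that is the core of the motif bound by the lysosomal gene regulators TFEB, TFE3 and MITF. RefSeq windows (GRCm38.p6, from 250 bases before to 50 bases after a start site) covered 8 members with 10 windows, and 4 of the 10 held the motif, against 7.15% of 32851 windows of all genes. The matches were in windows of Ctsa, Ctsd, Lgmn and Ctsl. Ctsa and Lgmn have 2 windows each, and in both genes the matches lie in the window of the start further into the gene (chr2:164833523-164833822 and chr12:102439043-102439342). The windows of their upstream starts (chr2:164832622-164832921, which reaches the start of Ctsa-202, and chr12:102439679-102439978, which reaches that of Lgmn-201) hold no match. Lgmn-202 starts at chr12:102423769, outside both Lgmn windows. The windows with a match in Ctsa, Lgmn and Ctsl hold the start of none of Ctsa-201, Ctsa-202, Lgmn-201, Lgmn-202 and Ctsl-201. The 6 matches are shown with the motif in capitals, on the strand of the gene, with positions counted from the start site of the window. They are in Ctsa (chr2:164833749-164833778, motif starting at position -12, and chr2:164833766-164833795, at 5), Ctsd (chr7:142388055-142388077, at -245 and cut at the edge of the window, and chr7:142387908-142387937, at -98), Lgmn (chr12:102439124-102439153, at -49) and Ctsl (chr13:64370739-64370768, at -236).
Ctsa, upstream match: tgagcaaactgtCACGTGatgcagatgctc
Ctsa, downstream match: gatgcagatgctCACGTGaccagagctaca
Ctsd, upstream match: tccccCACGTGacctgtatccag
Ctsd, downstream match: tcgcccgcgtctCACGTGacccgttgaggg
Lgmn: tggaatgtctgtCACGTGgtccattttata
Ctsl: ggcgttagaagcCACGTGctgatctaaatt
The log2 ratios of these 4 genes (-0.58, -0.42, -0.69 and -0.89) and of the 4 with windows but no match (Ctss -0.64, Ctsz -0.60, Ctsc -0.17 and Ctsk -1.96) overlapped. The Ctsk ratio rests on 31 and 5 counts. These ratios compare libraries of 1 group, so any effect of the motif was not tested. A match is a string of letters and not a measured binding site.

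Genes for those factors were all present. Tfe3 stood at 32.4 and 28.7 TPM, Mitf at 29.8 and 20.9 TPM and Tfeb at 6.27 and 2.48 TPM. All 12 genes on the list of transcription factors of lysosomal genes and their regulators reached 1 TPM in both libraries, which 39.9% of nuclear protein-coding genes did. Fnip2, encoding a partner of folliculin, had 150 and 76.7 TPM. Tfec, a macrophage member of the TFEB family, had 77.1 and 142 TPM. It was the 1 gene of the list over 2-fold higher in replicate 2, with a log2 ratio of 1.11. Among all 14052 genes tested, 4.08% were over 2-fold higher in that library. Rragc (40.0 and 24.3 TPM) and Fnip1 (33.0 and 28.6 TPM) followed. The list had a median log2 ratio of -0.17, with 8 of 12 lower in replicate 2.

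All 15 genes of the sorting machinery stood at 1 TPM or more in both libraries, and 14 did by the second quantifier. Grn, encoding progranulin, a lysosomal cofactor, stood at 1499 and 762 TPM. The endocytic receptor gene Lrp1 stood at 305 and 226 TPM. M6pr, the cation-dependent mannose 6-phosphate receptor, stood at 114 and 83.9 TPM, and Scarb2, the carrier of glucocerebrosidase, at 42.2 and 24.1 TPM. The list had a median log2 ratio of -0.22, with 9 of 15 lower in replicate 2 and 12 of 15 by the second quantifier.

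Partners of the members were likewise present, 9 of 9. Psap, encoding the precursor of the saposins, was above every member at 5525 and 2953 TPM. Lamp1 stood at 532 and 277 TPM, Cd74, the invariant chain cut by cathepsin S, at 293 and 177 TPM, and Lamp2 at 259 and 157 TPM. In this list 8 of 9 genes were lower in replicate 2, with a median log2 ratio of -0.47, and of the macrophage markers 9 of 10 were lower, with a median of -0.41.

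In the nuclear RNA, transcripts of the inhibitors were far lower in sum than those of the proteases. Of 20 inhibitor genes listed, 18 were found by symbol and 5 reached 1 TPM in both libraries. Cstb, encoding the cytosolic inhibitor stefin B, stood at 71.6 and 39.6 TPM and Cst3, encoding the secreted cystatin C, at 76.8 and 31.6 TPM. Cst7, encoding cystatin F, which is known to inhibit cathepsin C, stood at 33.5 and 18.5 TPM and Ctla2b at 8.88 and 5.34 TPM. The 18 summed to 195 and 97.7 TPM, against 9721 and 5011 TPM for the 10 members. The papain-like members alone summed to 6156 and 3097 TPM. No expected count was found for 11 of them, such as Cst6, Stfa1 and Stfa3, where a count of 0 allows up to 3 counts, or 0.0928, 0.366 and 0.655 TPM in replicate 2. The second quantifier listed Cst6 at 0.142 and 0.163 TPM, above that limit.

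Most other cathepsin genes were low or without counts. Ctso stood highest among them, and Scpep1, listed beside them though not a cathepsin, stood above it. Of 14 papain-like genes beyond the members, Ctso (19.5 and 11.6 TPM) and Ctsf (2.43 and 1.18 TPM) reached 1 TPM in both libraries, Ctsw stood at 0.34 and 0.69 TPM, and 11 had no expected count in either, among them Ctsj, Ctsm and Ctsr of the rodent placental cluster. Of 5 aspartic and serine genes, the carboxypeptidase gene Scpep1 (136 and 68.4 TPM) and Napsa (6.17 and 2.67 TPM) passed 1 TPM. Scpep1 was above the member Ctsl in replicate 2 but below it in replicate 1. In the second quantifier Scpep1 was below Ctsl in both libraries (38.6 against 55.3 TPM in replicate 2). Ctse stood at 0.28 and 0.11 TPM, and Ctsg and Cpvl had no count. A count of 0 allows up to 0.202 TPM for Ctsg in replicate 1 and 0.229 TPM in replicate 2.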

How the data were processed

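The data are 2 libraries of 1 group, so no contrast between conditions exists and no test was made. Members and gene lists were chosen with earlier results of these data known. Per the labels the libraries are biological replicates with 1 donor identifier; separate animals are not stated, so their spread may be partly technical.

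Per the file headers, the deposited gene and transcript tables are in the format of RSEM. Their expected counts are estimates that share out reads over transcripts, as deposited by the authors. The deposited TPM were corrected by the authors' quantifier for effective length. The deposited bounds of a TPM interval are treated as a score because their level is not stated per the file headers; they surround the posterior mean TPM, so a TPM can lie outside them. A second deposited transcript table, of kallisto format, gives estimated counts and TPM and is called the second quantifier. The readme files deposited name mm10 and GENCODE M21. The aligner, the tool versions and whether counting was stranded are not stated there.

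All 55536 genes matched the annotation. Expected counts were rounded for TMM (edgeR 4.0.16, R 4.3.3) and DESeq2 1.42.0 size factors; ratios use a pseudocount of 0.5 and genes averaging at least 10 counts. TPM ratios used a pseudocount of 0.1 TPM. Wilson (95%), exact Poisson and zero-count limits (3 counts) cover counting error only, as the reads carry no molecular identifiers. Splice junctions were read from the annotation's transcript sequences; no protein sequences were used here. The ratio step was tested on simulated libraries of 14052 genes with a true coefficient of variation of 20%. Of 100 genes with a true 4-fold difference 95% exceeded 2-fold, as did 50% of those with a true 2-fold difference and 4.57% of unchanged genes. With a coefficient of 10% these were 100%, 42% and 1.39%. A true difference equal to the cut passes it about as often as not, so the 2-fold genes check little. In the data 8.63% of genes were over 2-fold apart, more than the unchanged genes at either setting. Named genes were all members, the 4 highest genes of each list and up to 3 below 0.1 TPM in each. The osteoclast markers were all named in addition, beside Ctsk, and Tfeb, Tfe3 and Mitf beside the promoter motif. Named transcripts were the 2 highest of each member and retained_intron transcripts over 10% in both libraries. Genes that overlap a member were named after their values were seen. Python 3.11.15 with pandas 2.3.3, scipy 1.17.1 and numpy 2.4.6 served for the rest.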

Additional observations from a re-analysis of the deposited data

How the results depend on the processing

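The number of members at or above 100 TPM (8) ranged from 6 to 9 over the second quantifier, the posterior mean, another scaling and other floors, and from 8 to 9 with 1 library alone. The members' share of nuclear protein-coding TPM (3.06%) was 2.504% by the second quantifier and 2.665% to 3.455% with 1 library alone. The number over 2-fold apart (1) was 6 with uncentred TPM (13.2% of all genes tested), in which the median of 8773 genes shifts by -0.46 on the log2 scale, 0 with the second quantifier (11.8%) and 5 at 1.5-fold (23.6%). The median share on transcripts of other types than protein_coding (0.389%) was 2.597% by the second quantifier, 2.032% by TPM, and 0.3115% to 0.467% with 1 library alone. Of 50 log2 ratios under alternatives, 0 changed sign and 6 moved, all under 2 settings, centred TPM and the second quantifier. The other settings, DESeq2 size factors and other pseudocounts, shift the ratios of abundant members very little. They are therefore a weak check on the sign. Ratios cannot be formed from 1 library. No paired analysis was possible because there is 1 group. Depth limits Ctsk, which rests on 31 and 5 counts, and the genes with no count.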
